A study of Mus musculus with 20 samples.

Results

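*Sox2* and 9 other Sox genes that act in neural cells, *Sox1*, *Sox21*, *Sox4*, *Sox11*, *Sox5*, *Sox6*, *Sox8*, *Sox9* and *Sox10*, were followed in the brains of *Winnie* and C57BL/6 mice. They were taken by symbol, and all 10 were found among the 17211 genes of the expression table. The set was chosen by the measured *Winnie* minus C57BL/6 difference of *Sox2*, around which the other genes were gathered, so every *Winnie* against C57BL/6 value of these genes given here is a description of how they were chosen and not a test. *Winnie* mice carry a missense mutation of *Muc2*, the gene of the main intestinal mucin, in every cell of the body and develop colitis without any agent being given. The C57BL/6 controls came from the same breeding colony and lack the mutation, and mice of both genotypes were 14 weeks old. RNA was taken from the brain of each mouse, with 10 brains labelled *Winnie* and 10 labelled C57BL/6, 5 of each labelled female and 5 male. The study's methods state fewer brains per genotype without naming them, so all 20 were used.

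Sox proteins are transcription factors that bind DNA through an HMG box, a domain that sits in the minor groove and bends the double helix. They fall into groups by the likeness of this domain. The SoxB1 proteins SOX2 and SOX1 hold neural stem and progenitor cells in an undifferentiated state, and SOX2 also remains in adult astrocytes and other glia. The SoxB2 protein SOX21 opposes the SoxB1 proteins, the SoxC proteins SOX4 and SOX11 are high in newborn neurons, and the SoxD proteins SOX5 and SOX6 act in cortical projection neurons, interneurons and oligodendrocyte precursors. Of the SoxE proteins, SOX9 drives astrocyte formation, SOX10 is required for oligodendrocytes to mature and make myelin, and SOX8 acts beside both. A brain sample mixes all of these cells, so a lower value could reflect fewer cells of a type or less RNA in each cell, and these cannot be told apart.

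The coding sequence of the HMG box is shown because it sets the groups by which the genes are ordered here and because reads from such alike stretches could be counted on the wrong gene. Each line gives 210 bases of coding sequence from the GENCODE M21 transcripts (GRCm38), 5′ to 3′ on the coding strand, with the bases that differ from *Sox2* in capitals.
Sox2: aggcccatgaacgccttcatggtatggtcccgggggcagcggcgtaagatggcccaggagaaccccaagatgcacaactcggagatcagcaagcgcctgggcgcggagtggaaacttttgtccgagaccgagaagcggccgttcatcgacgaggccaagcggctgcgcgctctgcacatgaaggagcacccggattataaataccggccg
Sox1: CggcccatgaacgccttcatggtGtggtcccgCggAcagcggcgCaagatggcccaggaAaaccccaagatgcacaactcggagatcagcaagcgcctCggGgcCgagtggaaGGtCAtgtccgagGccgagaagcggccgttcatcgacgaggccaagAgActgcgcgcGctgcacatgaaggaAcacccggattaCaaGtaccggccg
Sox21: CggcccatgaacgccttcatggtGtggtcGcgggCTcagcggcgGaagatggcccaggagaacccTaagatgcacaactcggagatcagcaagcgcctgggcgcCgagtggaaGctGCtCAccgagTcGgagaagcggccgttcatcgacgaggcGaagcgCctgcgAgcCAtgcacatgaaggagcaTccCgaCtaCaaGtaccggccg
Sox4: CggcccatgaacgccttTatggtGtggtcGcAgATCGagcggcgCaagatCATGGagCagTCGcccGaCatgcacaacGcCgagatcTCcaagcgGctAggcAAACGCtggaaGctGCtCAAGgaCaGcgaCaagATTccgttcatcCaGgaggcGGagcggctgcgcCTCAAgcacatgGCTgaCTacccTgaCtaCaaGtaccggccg
Sox9: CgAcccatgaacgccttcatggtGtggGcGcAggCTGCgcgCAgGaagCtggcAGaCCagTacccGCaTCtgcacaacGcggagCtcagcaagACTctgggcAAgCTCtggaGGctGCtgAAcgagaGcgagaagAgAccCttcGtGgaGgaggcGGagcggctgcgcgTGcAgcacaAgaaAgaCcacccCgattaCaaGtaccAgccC
Sox10: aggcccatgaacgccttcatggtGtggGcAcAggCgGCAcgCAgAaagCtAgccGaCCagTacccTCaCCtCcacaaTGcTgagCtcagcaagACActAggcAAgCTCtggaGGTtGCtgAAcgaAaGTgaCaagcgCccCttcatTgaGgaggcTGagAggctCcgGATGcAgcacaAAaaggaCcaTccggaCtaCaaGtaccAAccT
The *Sox2* stretch lay at chr3:34650548-34650757 on the plus strand, coding bases 133 to 342 of its single exon. Those of *Sox1* (chr8:12396517-12396726, plus strand), *Sox21* (chr14:118235399-118235608, minus strand) and *Sox4* (chr13:28952632-28952841, minus strand) each lay in a single exon as well. In *Sox9* (chr11:112782903-112783905, plus strand) and *Sox10* (chr15:79159307-79163401, minus strand) the box was split over 2 exons by an intron within the stated range. The genes whose box is not printed were *Sox11* (chr12:27334264-27342574), *Sox5* (chr6:143828425-144781977), *Sox6* (chr7:115470872-116038796) and *Sox8* (chr17:25565892-25570686), all on the minus strand, and the box of each but *Sox11* was also split over 2 exons. *Sox1* shared 90.5% of these bases with *Sox2* and *Sox21* shared 88.1%, whereas the other members shared between 57.1% (*Sox6*) and 71.9% (*Sox9*). Within groups, *Sox4* and *Sox11* shared 91.0%, *Sox8* and *Sox9* 86.2%, *Sox9* and *Sox10* 83.3%, and *Sox5* and *Sox6* 82.4%. The longest run of identical bases between the whole transcripts of any pair of members was 48 bases (*Sox4* and *Sox11*), and that of *Sox2* and *Sox1* was 38 bases, both shorter than the 100-base paired reads.

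Expression was measured as CPM, the reads of a gene scaled to the same total in every brain. Between 16540303 and 23923769 reads lay on the listed genes per brain, and *Sox2* held 493 to 868 of them. Differences between groups are given as log2 fold changes of CPM + 0.5 with the standard error (SE) from limma, a linear model fitted to all genes at once, and the false discovery rate (FDR) is the Benjamini-Hochberg adjusted p over all 17211 genes. Of these genes 2.52% (434) were called at an FDR under 0.05, 1.01% (173) lower and 1.52% (261) higher in *Winnie*. As deposited 60.1% of the calls were higher, and with a correction for transcript length and GC content 46.9% were. The libraries were numbered 1 to 10 for C57BL/6 and 11 to 20 for *Winnie*, so library order and genotype cannot be told apart. *Xist*, which is transcribed in females, and *Ddx3y*, a Y-linked gene, went with the sex label in all 10 *Winnie* brains and against it in 9 of 10 C57BL/6 brains, so labelled sex was compared within *Winnie* only. The 8 neuronal markers were present in every brain, with a summed level of 7605 to 8605 CPM, and *Muc2* was not analysed here.

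*Sox2* was lower in the *Winnie* brains. The 10 C57BL/6 brains ranged from 34.3 to 42.5 CPM with a median of 36.2, and the 10 *Winnie* brains from 26.5 to 34.4 CPM with a median of 31.0. All but 1 of the *Winnie* brains (9 of 10) lay below the lowest C57BL/6 brain, and 8 C57BL/6 brains lay above the highest *Winnie* brain, so the overlap came from *Winnie* replicate 9 and C57BL/6 replicates 1 and 4. The means were 37.6 ± 3.05 and 30.5 ± 2.47 CPM (SD, n = 10 each), a difference of −19.0% and a log2 fold change of −0.30 (SE 0.0508, 95% confidence interval −0.40 to −0.20). Its FDR of 0.00314 in limma was the value that brought it in, rank 10 of all genes by p. Among the 10 members it was the 1 gene called at an FDR under 0.05. The counts are given with the 2.52% of all genes above and nothing is read from them, since this contrast chose the set. *Sox4* lay just outside the threshold, at an FDR of 0.0552 in limma, and the other 8 members had FDR values of 0.179 to 0.906. At an unadjusted p under 0.05 there were 5 members (17.6% of all genes), and 0 members and 0 of all genes reached the study's stricter threshold, which sets an FDR under 0.001 together with a minimum fold change. edgeR, a count model run on reads recovered from the CPM values, also called 1 member, where it called 2.99% of all genes. In all, 6 members had lower and 4 had higher means in *Winnie*, with a median log2 fold change of −0.056 against 0.0022 over all genes.

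**Figure D1:**
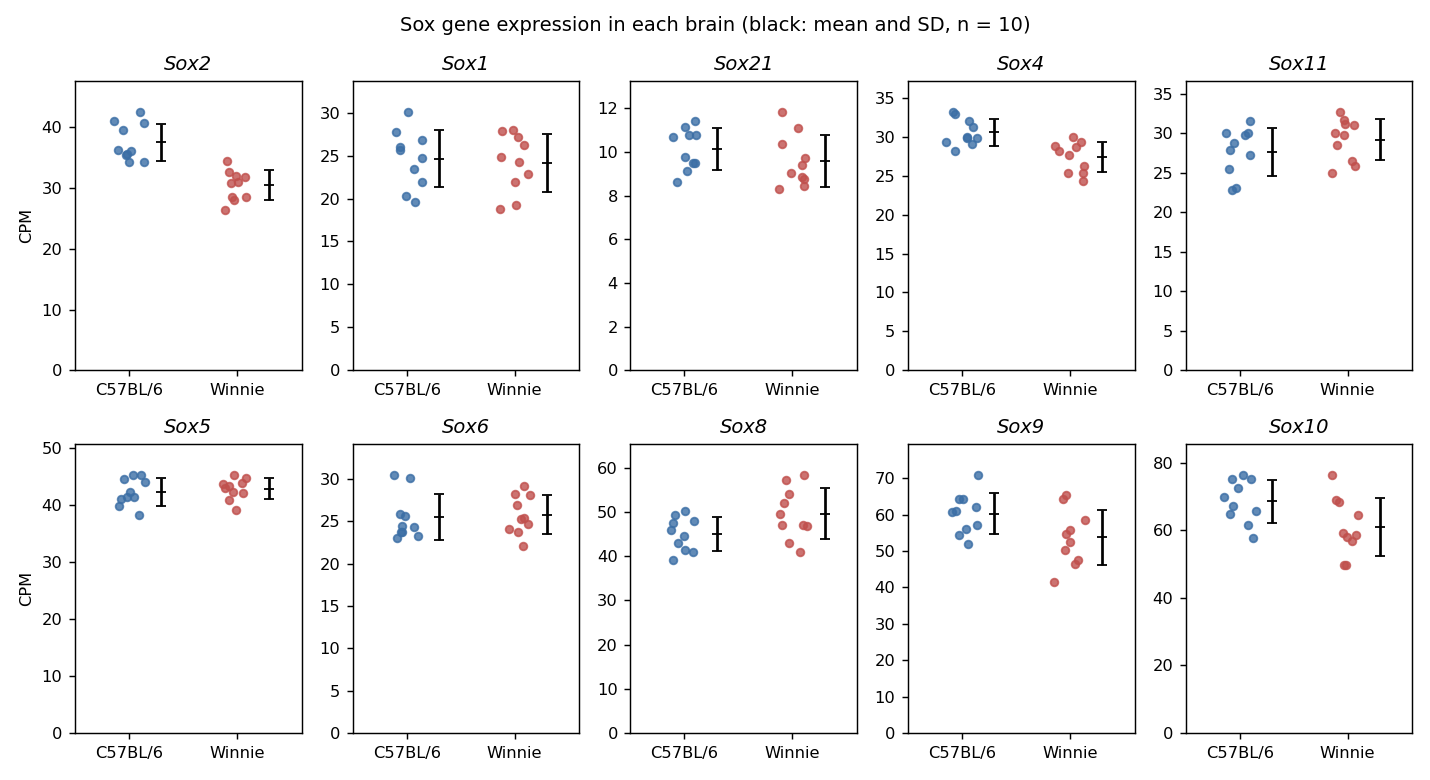
CPM of the 10 Sox genes in each brain, 1 panel per gene with the vertical axis starting at 0, C57BL/6 in blue and *Winnie* in red, and the black bars giving the mean and SD of 10 brains. *Sox2* is the panel in which the genotypes overlap least, with 9 of 10 *Winnie* brains below the lowest C57BL/6 brain.

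*Sox1*, the other SoxB1 gene, did not share the *Sox2* values. It ranged from 19.6 to 30.1 CPM (median 25.2) in C57BL/6 and from 18.8 to 28.0 CPM (median 24.6) in *Winnie*, with a log2 fold change of −0.031 (SE 0.0805, 95% confidence interval −0.20 to 0.13). The ranges overlapped almost entirely. *Sox21*, the SoxB2 gene, had the lowest CPM of the set, 8.60 to 11.4 (median 10.2) in C57BL/6 and 8.29 to 11.8 (median 9.20) in *Winnie*. Its log2 fold change was −0.080 (SE 0.0675), and 7 of 10 *Winnie* brains lay below the C57BL/6 median.

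The SoxC genes, which neurons switch on as they leave the cell cycle, had estimates of opposite sign. *Sox4* ranged from 28.1 to 33.2 CPM (median 29.9) in C57BL/6 and from 24.3 to 29.9 CPM (median 28.0) in *Winnie*, where 5 brains lay below the lowest C57BL/6 brain and 9 below the C57BL/6 median. Its means were 30.6 ± 1.72 and 27.4 ± 1.92 CPM (SD, n = 10 each), a log2 fold change of −0.16 (SE 0.0452). *Sox11* ranged from 22.9 to 31.5 CPM (median 28.3) in C57BL/6 and from 24.98 to 32.7 CPM (median 29.9) in *Winnie*, with a log2 fold change of 0.080 (SE 0.0605). On the opposite strand a lincRNA, *Gm26735*, covers 2616 bases of the *Sox4* exon. Whether reads were counted by strand, and how a read over both genes was assigned, is not given in the sources used here. The effect of that transcript, not analysed here, on the *Sox4* counts is therefore not known.

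The SoxD genes lay closest to no difference. *Sox5*, which shapes deep-layer cortical neurons, ranged from 38.2 to 45.3 CPM (median 41.8) in C57BL/6 and from 39.2 to 45.3 CPM (median 43.2) in *Winnie*, with a log2 fold change of 0.018 (SE 0.0391). *Sox6*, which acts in interneurons born in the medial ganglionic eminence, ranged from 23.0 to 30.5 CPM (median 24.4) and from 22.01 to 29.2 CPM (median 25.3), with a log2 fold change of 0.019 (SE 0.0577). *Sox6*, *Sox11* and *Sox5* had the longest transcripts of the set (8668, 8311 and 7243 bases), and with the correction for transcript length and GC content, added after seeing the data, the log2 fold changes of both SoxD genes turned to negative values, −0.040 (*Sox5*) and −0.052 (*Sox6*). The antisense gene *Sox5os1*, not analysed here, shares 1330 exonic bases with *Sox5*.

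The SoxE genes were split. *Sox9* ranged from 52.0 to 70.9 CPM (median 60.9) in C57BL/6 and from 41.6 to 65.5 CPM (median 53.6) in *Winnie*, with 4 *Winnie* brains below the lowest C57BL/6 brain and a log2 fold change of −0.17 (SE 0.0696). *Sox10* ranged from 57.6 to 76.3 CPM (median 68.4) and from 49.6 to 76.4 CPM (median 58.9), with 3 *Winnie* brains below the lowest C57BL/6 brain, 1 above the highest, and a log2 fold change of −0.17 (SE 0.0689). For both genes 8 of 10 *Winnie* brains lay below the C57BL/6 median. *Sox8* had the opposite sign, with 39.2 to 50.3 CPM (median 45.3) in C57BL/6 and 41.0 to 58.5 CPM (median 48.4) in *Winnie*, 4 *Winnie* brains above the highest C57BL/6 brain and a log2 fold change of 0.14 (SE 0.0588). An antisense gene, *2810468N07Rik*, shares 329 exonic bases with *Sox8* and had means of 19.8 and 18.4 CPM (log2 fold change −0.10, SE 0.0596). How reads over the shared bases of this pair were assigned is likewise not known.

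**Figure D2:**
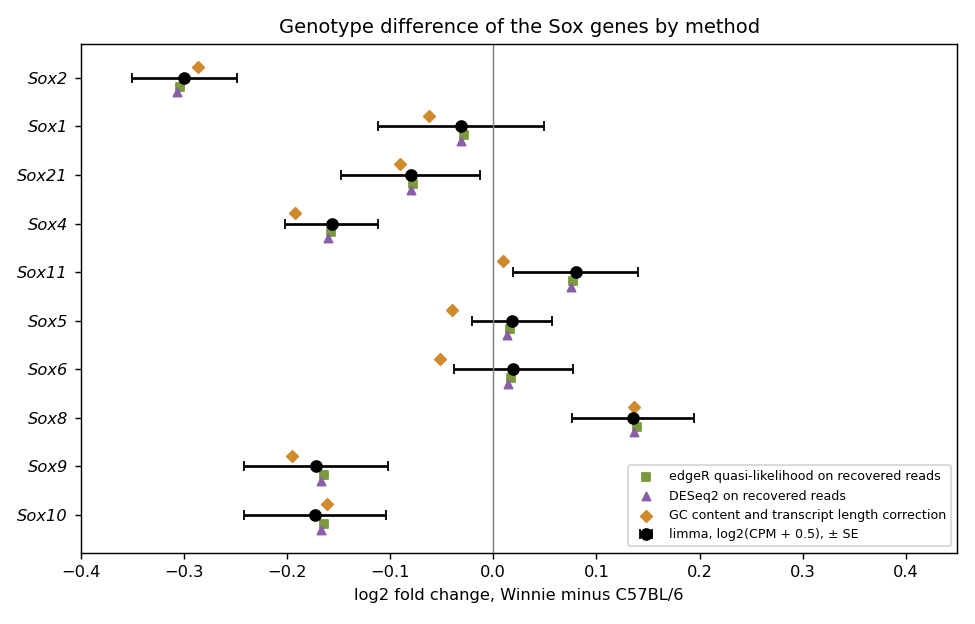
Log2 fold change (*Winnie* minus C57BL/6, horizontal axis) of each Sox gene, with the limma estimate and its SE as black points and bars and the estimates of edgeR, DESeq2 and limma corrected for transcript length and base composition (GC content) as coloured symbols. *Sox2* lies between −0.31 and −0.29 by all 4 methods, and *Sox5* and *Sox6* change sign with the correction.

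Levels of different genes were compared as CPM per kb of exon (means ± SD, n = 10), which divides out gene length. In C57BL/6 *Sox10* was highest at 22.5 ± 2.07, followed by *Sox2* at 18.3 ± 1.48, *Sox9* at 14.6 ± 1.35 and *Sox8* at 14.4 ± 1.21 CPM per kb. The intervals of 1 SD around the means overlapped for *Sox9* and *Sox8*, and for no other neighbours among these 4. In *Winnie* the order was *Sox10* (20.01 ± 2.81), *Sox8* (15.9 ± 1.85), *Sox2* (14.8 ± 1.20) and *Sox9* (12.99 ± 1.85 CPM per kb), and each of them overlapped the next. The other 6 genes followed in C57BL/6 with *Sox4* at 6.38 ± 0.358, *Sox1* at 5.10 ± 0.691, *Sox11* at 3.33 ± 0.362, *Sox5* at 2.94 ± 0.169, *Sox21* at 2.67 ± 0.251 and *Sox6* at 1.72 ± 0.183 CPM per kb, where *Sox5* overlapped *Sox11* and *Sox21*. The lengths of *Sox5* and *Sox6* joined the exons of many isoforms, and per kb of the longest transcript *Sox5* was at 5.84 and *Sox6* at 2.94 CPM in C57BL/6. The SoxE genes and *Sox2* had the most reads per length by either length.

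**Figure D3:**
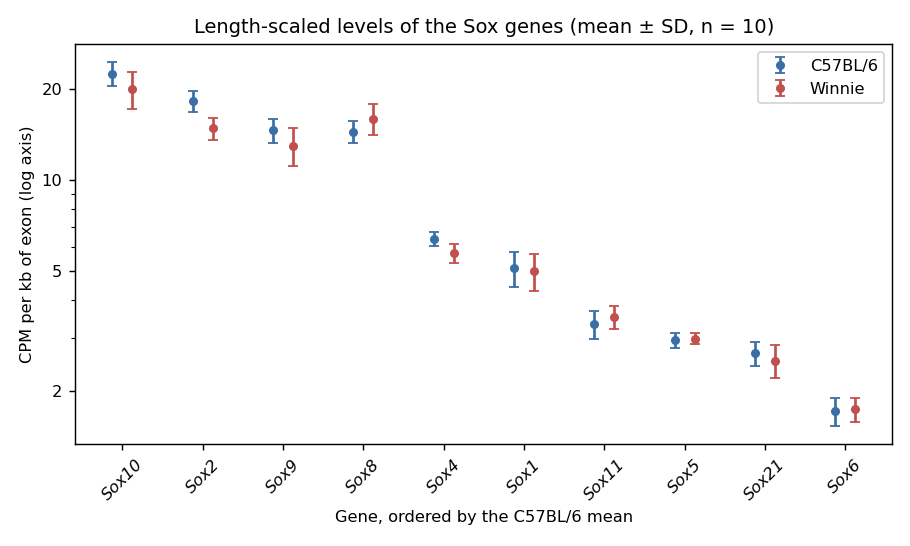
CPM per kb of exon (log axis) of each Sox gene, ordered by the C57BL/6 mean, with points for the mean and bars for the SD of 10 C57BL/6 (blue) and 10 *Winnie* (red) brains. *Sox10*, *Sox2*, *Sox9* and *Sox8* lie at 12.99 or above in both genotypes and the other 6 genes at 6.38 or below.

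*Sox2* lies within an intron of *Sox2ot*, a long noncoding RNA transcribed from the same strand (chr3:34104270-34682619), with which it shares 0 exonic bases. *Sox2ot* ranged from 28.5 to 37.0 CPM (median 33.2) in C57BL/6 and from 22.5 to 33.1 CPM (median 27.7) in *Winnie*. Its means were 33.7 ± 2.45 and 28.2 ± 3.50 CPM (SD, n = 10 each), and the log2 fold change was −0.26 (SE 0.0607, FDR = 0.0194 in limma). It was looked at for its place beside *Sox2*, in the same contrast, and is likewise a description. Of the other genes within 500 kb of *Sox2*, *Gm20515* (2.54 and 2.31 CPM, log2 fold change −0.14, SE 0.119) and *RP24-277H8.1* (0.737 and 0.7099 CPM, log2 fold change −0.034, SE 0.136) were listed, and neither was called. *Sox1* likewise lies within an intron of *Gm5607* (*Sox1ot* in GENCODE M21), which had 10.8 ± 1.62 CPM in C57BL/6 and 11.3 ± 1.85 CPM in *Winnie* (log2 fold change 0.064, SE 0.0875). The antisense lincRNA of *Sox21*, *Gm4675*, shares 713 exonic bases with it and had 0.598 and 0.437 CPM (log2 fold change −0.23, SE 0.127).

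Whether a Sox gene and its overlapping gene varied together from brain to brain was asked with each value centred on its genotype mean, which takes out the contrast that chose the genes. These 3 relations were added after seeing the data, each with a two-sided permutation test of 100000 resamples over 20 brains. The pair of *Sox21* and *Gm4675* was not among them and was not tested. *Sox1* and *Gm5607* varied together (Pearson r = 0.657, p = 0.00264, adjusted p = 0.00792, Spearman rho = 0.660, p = 0.0026, adjusted p = 0.0078). The r was 0.675 within C57BL/6, 0.642 within *Winnie* and 0.498 without the 2 brains farthest from the median of *Gm5607*. *Sox2* and *Sox2ot* had r = 0.484 (p = 0.0364, adjusted p = 0.0546) and rho = 0.592 (p = 0.0074, adjusted p = 0.0111), so the relation passed by rank alone. It was 0.712 within C57BL/6, 0.376 within *Winnie* and 0.508 without the farthest 2 brains. *Sox8* and *2810468N07Rik* had r = 0.260 (p = 0.241, adjusted p = 0.241) and rho = 0.283 (p = 0.227, adjusted p = 0.227), with r = −0.056 within C57BL/6, 0.696 within *Winnie* and 0.308 without the farthest 2 brains.

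**Figure D4:**
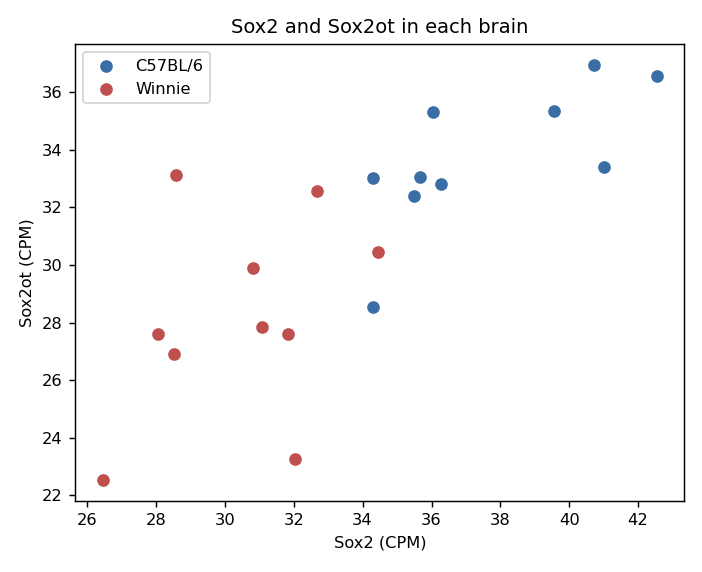
*Sox2* (horizontal axis, CPM) against *Sox2ot* (vertical axis, CPM) in each brain, C57BL/6 in blue and *Winnie* in red, with both axes starting above 0. Within C57BL/6 r was 0.712 and within *Winnie* 0.376, and the *Winnie* brains lie toward the lower left.

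The 10 Sox genes gave 45 pairs, also centred on the genotype means and added after seeing the data. Of these, 1 passed at an adjusted p under 0.05, *Sox9* with *Sox10* (r = 0.731, permutation p = 0.00099, adjusted p = 0.0445). By rank it had rho = 0.699 (permutation p = 0.00189) but an adjusted p of 0.085. The r of this pair was 0.728 within C57BL/6, 0.733 within *Winnie* and 0.576 without the 2 brains farthest from the median of *Sox9*. *Sox21* with *Sox10* followed (r = 0.672, permutation p = 0.00239, adjusted p = 0.0538, rho = 0.642, permutation p = 0.00437, adjusted p = 0.0983). The highest r of *Sox2* was with *Sox9* (r = 0.583, permutation p = 0.00916, adjusted p = 0.137, rho = 0.603, permutation p = 0.0066, adjusted p = 0.099), and that of *Sox4* was with its SoxC partner *Sox11* (r = 0.532, permutation p = 0.0172, adjusted p = 0.182, rho = 0.546, permutation p = 0.0157, adjusted p = 0.176). Without the 2 brains farthest from the median of the first gene these last 3 pairs had r = 0.540, 0.559 and 0.584. The r of *Sox21* with *Sox10* was 0.509 within C57BL/6 and 0.764 within *Winnie*, that of *Sox2* with *Sox9* 0.657 and 0.557, and that of *Sox4* with *Sox11* 0.330 and 0.749.

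**Figure D5:**
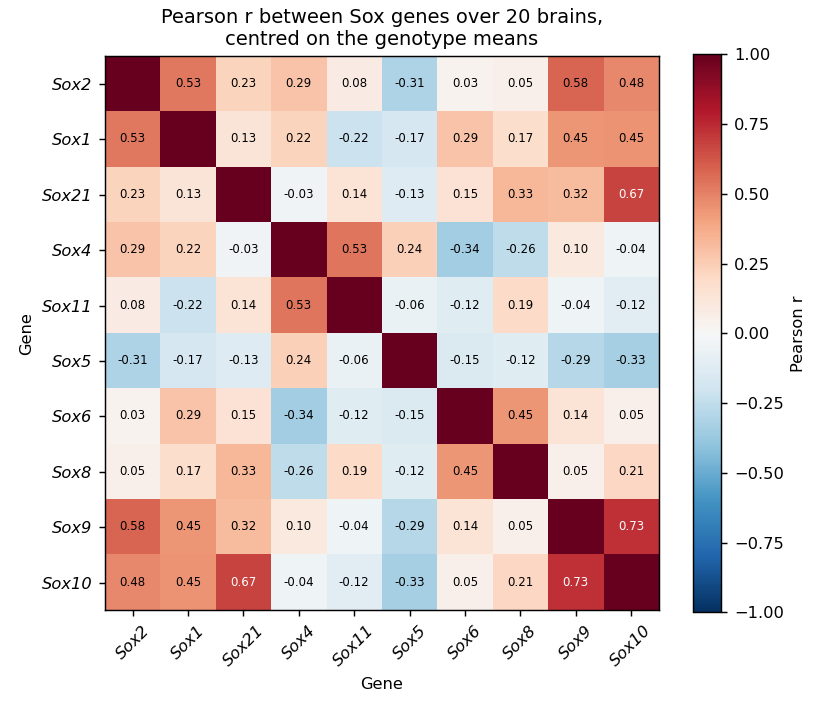
Pearson r between each pair of the 10 Sox genes over 20 brains, on log2(CPM + 0.5) centred on the genotype means, with red for positive and blue for negative values. The *Sox9* and *Sox10* cell, at 0.73, is the highest off the diagonal and the 1 pair past the adjusted threshold.

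Each Sox gene was also set against the mean level of marker genes of chosen brain cell types, in 12 relations centred on genotype, and 0 passed at an adjusted p under 0.05. *Sox2*, *Sox1* and *Sox21* were set against astrocyte markers only, and their relation with neural progenitor markers was not tested. *Sox10* with 12 mature oligodendrocyte markers came nearest by rank (rho = 0.559, permutation p = 0.0139, adjusted p = 0.167, r = 0.477, permutation p = 0.0371, adjusted p = 0.311), with r = 0.750 within C57BL/6, 0.307 within *Winnie* and 0.566 without the farthest 2 brains. *Sox6* with interneuron markers of the medial ganglionic eminence had r = 0.435 (permutation p = 0.0519, adjusted p = 0.311) and rho = 0.383 (permutation p = 0.0999, adjusted p = 0.348), with 0.388 and 0.501 within the genotypes, and r = −0.062 without *Winnie* replicate 6 and C57BL/6 replicate 7, on which it rested. *Sox4* with immature neuron markers had r = 0.395 (permutation p = 0.0839, adjusted p = 0.335) and rho = 0.426 (permutation p = 0.0659, adjusted p = 0.348), with 0.431 and 0.383 within the genotypes and 0.461 without the farthest 2 brains. *Sox2* with 12 astrocyte markers had r = 0.1 (permutation p = 0.683, adjusted p = 0.778) and rho = 0.131 (permutation p = 0.597, adjusted p = 0.716), with 0.244 within C57BL/6, −0.087 within *Winnie* and −0.072 without the farthest 2 brains. The other 8 relations had r of 0.056 (*Sox11* with immature neuron markers) to 0.376 (*Sox6* with oligodendrocyte precursor markers), with adjusted p of 0.374 to 0.825.

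The levels of these markers by genotype are given beside *Sox2*, and their part in its difference was not tested. The 12 astrocyte markers summed to 5047 to 5737 CPM in C57BL/6 and 5120 to 5852 CPM in *Winnie*, and 1 of them was called, the connexin gene *Gjb6* (54.4 and 63.2 CPM, log2 fold change 0.22, FDR = 0.0384), which was higher. The 10 neural progenitor markers, which mark the cells *Sox2* is best known from, summed to 154.6 to 186.5 and 160.0 to 179.2 CPM, with a median log2 fold change of −0.12 against 0.0022 over all genes. Of these 1 was called lower, *Fabp7* (brain lipid-binding protein, 12.9 and 9.50 CPM, log2 fold change −0.42, FDR = 0.0163), and none was called higher. Most of the 10 were lower, but *Prom1* (log2 fold change 0.18), *Notch1* (0.097) and *Vim* (0.089) were higher without being called. Of the 10 oligodendrocyte precursor markers, which summed to 584.7 to 746.1 and 677.0 to 770.8 CPM, 2 were called higher and 1 called lower. *Vcan*, a matrix proteoglycan (22.5 and 27.5 CPM, log2 fold change 0.29, FDR = 0.0112), and *Pdgfra*, the receptor for their growth factor (58.5 and 67.3 CPM, log2 fold change 0.20, FDR = 0.033), were higher. *Olig2*, a lineage transcription factor (41.2 and 33.4 CPM, log2 fold change −0.30, FDR = 0.0209), was lower. The 12 mature oligodendrocyte markers summed to 7006 to 8866 and 7028 to 8385 CPM, with a median log2 fold change of −0.048.

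Among the other cell markers, 1 of 6 for interneurons of the medial ganglionic eminence was higher (*Erbb4*, the neuregulin receptor, 96.6 and 110.0 CPM, log2 fold change 0.19, FDR = 0.0354). Of 8 for endothelium 1 was higher, the glucose transporter gene *Slc2a1* (95.6 and 130.2 CPM, log2 fold change 0.45, FDR = 0.00551), and 1 lower, the tight junction gene *Cldn5* (16.4 and 11.7 CPM, log2 fold change −0.47, FDR = 0.00331). None was called among 10 immature neuron, 8 neuron, 6 deep-layer cortical neuron, 6 ependyma, 8 microglia, 6 choroid plexus and 6 meningeal fibroblast markers. None was called either among 7 cerebellar and 7 striatal markers, whose median log2 fold changes were −0.30 and −0.21, and the striatal markers summed to 292.4 to 1017 CPM in C57BL/6 and 283.4 to 990.2 CPM in *Winnie*. The cerebellar sums, 138.1 to 184.2 and 135.2 to 159.6 CPM, came largely from *Calb1* (means 104.6 and 100.2 CPM). In C57BL/6 *Gabra6* (1.46 ± 2.18 CPM), *Cbln3* (3.05 ± 3.54 CPM) and *Pcp2* (1.05 ± 1.48 CPM) were low, with an SD above the mean. In *Winnie* they were lower still, at 0.453 ± 0.528, 1.40 ± 0.937 and 0.448 ± 0.353 CPM. Their log2 fold changes were −0.75, −0.64 and −0.45, none called, while that of *Cbln1* was 0.024. No marker of any list was at 0 in all brains, and the part of these regional levels in the *Sox2* values was not tested.

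The factors that work with SOX2 and the Notch genes that maintain progenitors beside it did not pass. Of 18 such genes 0 were called higher and 0 called lower, with a median log2 fold change of −0.067, from −0.17 (*Pou3f4*) to 0.13 (*Jag1*). The POU factor genes *Pou3f2* (38.0 and 34.1 CPM, log2 fold change −0.15, FDR = 0.116 in limma) and *Pou3f3* (102.2 and 95.6 CPM, log2 fold change −0.096, FDR = 0.25 in limma), whose proteins bind DNA next to SOX2, and *Pax6* (11.7 and 10.6 CPM, log2 fold change −0.15, FDR = 0.274 in limma), which also partners with it, are given as values, named after they were seen. In the same list *Jag1* (0.13), *Dll1* (0.12), *Notch1* (0.097) and *Notch2* (0.083) were higher, also without being called. *Pax6*, *Notch1*, *Hes1* and *Hes5* stand in the neural progenitor list as well, so the 2 lists are not separate observations. Of 10 other Sox genes 7 were analysed and 0 were called, from −0.18 (*Sox18*) to 0.27 (*Sox17*), both genes of endothelium. The third SoxB1 gene, *Sox3*, was at 1.76 and 1.79 CPM (log2 fold change −0.0008, SE 0.126).

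Labelled sex within *Winnie* was a contrast that the choice of genes did not use, with 5 brains against 5. The females were libraries 11 to 15 and the males 16 to 20, so library order and labelled sex cannot be told apart here either. At an FDR under 0.05 in limma 0 of the 10 Sox genes were called, against 0.116% (20) of all genes, and 2 had an unadjusted p under 0.05, as did 9.81% of all genes. *Sox8* ranged from 46.9 to 58.5 CPM in females and from 41.0 to 52.0 CPM in males, with a male minus female log2 difference of −0.21 (SE 0.0719, p = 0.00851 and FDR = 0.313 in limma). *Sox21* ranged from 8.85 to 11.8 CPM in females and from 8.29 to 9.71 CPM in males, with a difference of −0.20 (SE 0.0898, p = 0.033 and FDR = 0.450 in limma). The groups overlapped for both genes, and neither passed the correction. *Sox2* had means of 30.2 ± 1.52 CPM in females and 30.7 ± 3.34 CPM in males (SD, n = 5 each), and its difference of 0.021 had a 95% confidence interval of −0.13 to 0.17. The other 7 genes had differences between −0.17 (*Sox1*) and 0.039 (*Sox9*).

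The genes whose brain-to-brain pattern was most like each Sox gene were found by Pearson r on log2(CPM + 0.5) over 20 brains, centred on genotype, with the highest of 17211 taken for each. They are a description with no test. For *Sox2* they were *Gm24564* (0.82), *Cln3* (0.76), *Invs* (0.76), *Zfp467* (0.75) and *Asic3* (0.74), of which *Gm24564* and *Asic3* had means under 0.5 CPM. None of these 5 shared the genotype value of *Sox2*, with log2 fold changes of −0.019 (*Cln3*) to 0.19 (*Asic3*). For *Sox1* they were *Gpr149* (0.84), *Dmrtb1* (0.80) and *Rarres2* (0.80), and for *Sox21* *Arhgap23* (0.81), *Dbx2* (0.77) and *Lama3* (0.76). *Sox4* had *Mrps36* (0.71), *Lsm12* (0.70) and *Gm28439* (0.70), while *Sox11* had *Znrf1* (0.85), *Pbx2* (0.79) and *Dio2* (0.75). For *Sox5* they were *Gm28928* (0.69), *Adgrl1* (0.68) and *Gm16199* (0.68), and for *Sox6* *Sash1*, *Cttnbp2nl* and *Ankrd50* (all 0.78). *Sox8* had *Sik1*, *Ier2* and *Map3k14* (all 0.84), of which *Sik1* and *Ier2* are genes that cells switch on within minutes of stimulation. *Sox9* had *Efcab12* (0.88), *Msn* (0.80) and *Snx33* (0.79), and *Sox10* had *Abhd1* (0.84), *Msn* (0.82) and *Fads1* (0.82). *Msn*, the gene of the membrane linker moesin, thus stood in the lists of *Sox9* and *Sox10* but not in that of *Sox8*.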

How the data were processed

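Brain RNA from 20 mice was sequenced with paired 100-base reads, and the authors processed it with RNAsik 1.5.4 and featureCounts on GRCm38, per the labels and the study's methods. The authors deposited CPM for 17211 genes, and in this table no gene reaches 0.5 CPM in fewer than 4 brains. Every value was a whole number of reads within 0.05 reads, from 16540303 to 23923769 reads per brain (median 19087087), and 3 reads were worth at most 0.181 CPM. These limits cover counting error only. Groups were taken from the labels, by which each library is the brain of a separate mouse.

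limma 3.58.1 (R 4.3.3) was fitted to log2(CPM + 0.5) of all genes with trend and robust variance, and FDR was Benjamini-Hochberg. The study used edgeR on counts, and since CPM was deposited, the reads recovered from it were also tested with edgeR 4.0.16 and with DESeq2 1.42.0. Further alternatives were quantile normalization, median-ratio scaling, a pseudocount of 0.1 or of 1, a filter that kept genes with a mean of at least 1 CPM, covariates (labelled sex, *Ddx3y*, astrocyte level), a replicate block, limma without trend and robust variance, each brain left out and, added after seeing the data, a correction by splines (5 degrees of freedom) on GC content and transcript length. Permutation tests, permuting within genotype, used numpy 2.4.6, with ranks from scipy 1.17.1. The tests were tested on simulated data. GENCODE M21 matched 17128 genes. The Sox genes and the gene lists were chosen with earlier results of these data known. The result of 1 marker gene is not reported here. Named are the Sox genes, at most 4 called genes per list, genes overlapping a Sox gene or within 500 kb of *Sox2*, and the 5 (*Sox2*) or 3 genes most like each in pattern. Also named, without being called, are *Sox3*, genes at the ends of stated ranges, and further list genes picked after their values were seen.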

Additional observations from a re-analysis of the deposited data

How the results depend on the processing

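*Sox2* kept its sign and its FDR under 0.05 in all 13 alternatives, the highest FDR being 0.0123 in limma without trend and robust variance. It also did so in all 20 fits that left out 1 brain (log2 fold change −0.32 to −0.28, FDR 0.00178 to 0.00864 in limma). These fits reuse the contrast that chose the gene, so they describe it and are not a test. Called members were 2 in place of 1, through *Sox4*, in some fits, given here with its FDR and the count of all genes called. These were a minimum mean CPM of 1 (0.0496, 481 genes), DESeq2 (0.0384, 977 genes) and the GC content and transcript length correction (0.0394, 294 genes). With 1 brain left out 1 to 2 members were called. *Sox4* passed without C57BL/6 replicate 1 (0.0393, 562 genes), C57BL/6 replicate 10 (0.0489, 694 genes) or *Winnie* replicate 5 (0.0382, 419 genes). Nothing is read from these counts, since this contrast chose the set. The cause was not tested. The count over all genes, 434, was 977 with DESeq2, 253 without trend and robust variance, and 169 to 694 with 1 brain left out. It moved over 1.5 times without C57BL/6 replicates 3 (238), 5 (169), 8 (250), 9 (270) and 10 (694) and *Winnie* replicates 2 (264), 3 (241), 7 (256) and 8 (216). With the replicate block it was 227 and *Sox2* was −0.30 (FDR 0.0104). The deviations of same-numbered brains had r of −0.293 to 0.151, so the numbers were not taken as pairs, and the block changed the call of no Sox gene. Shares of calls that were higher were 54.6% with median-ratio scaling and 52.4% with quantile normalization. Over 5 equal classes of transcript length the median log2 fold change of all genes ran from −0.045 (shortest) to 0.051 (longest), and *Sox2* (class 2) was in one with −0.023.

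With the GC content and transcript length correction *Sox5* (−0.040) and *Sox6* (−0.052) changed sign. With 1 brain left out *Sox1* ran from −0.066 to 0.0064 and *Sox6* from −0.0007 to 0.048. For labelled sex in *Winnie* 0 members were called in any fit, and the count of all genes, 20, was 12 to 67 with 1 brain left out (67 without replicate 1, 12 without 2 or 4, 43 without 10), while *Sox2* ran from −0.021 to 0.073, *Sox4* from −0.0074 to 0.066, *Sox11* from −0.072 to 0.024, *Sox5* from −0.030 to 0.021 and *Sox9* from −0.024 to 0.13. Relations that changed sign were *Sox8* with mature oligodendrocyte markers (−0.427 within C57BL/6, −0.103 without the 2 farthest brains), *Sox11* with immature neuron markers (−0.065 within C57BL/6), *Sox2* with astrocyte markers (−0.087 within *Winnie*, −0.072 without 2 brains), *Sox21* (−0.311 within *Winnie*) and *Sox1* (−0.03 without 2 brains) with astrocyte markers, and *Sox6* with interneuron markers (−0.062 without 2 brains).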
